A study of Mus musculus with 2 samples.

Results

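Keratins are the intermediate filament proteins of epithelial cells. The mouse keratin gene family was taken as every gene whose symbol is Krt followed by digits, or by digits and 1 letter, which gave 53 of the 32285 genes in the deposited tables, 28 of type I and 25 of type II. Cells of the cornea and limbus (the rim between cornea and conjunctiva) were profiled by droplet single-cell RNA sequencing in 2 groups of 1 library each, uninjured wild-type mice and wild-type mice given an alkali burn (NaOH, sodium hydroxide). The sources used here give neither the time after the burn nor the age, sex or number of the mice. Most of the conjunctiva had been dissected away before the cells were freed. With 1 library a group no test between groups was possible, so each difference below compares 2 libraries and has no replicate check.

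A keratin filament is built from pairs of 1 acidic type I and 1 basic type II chain, so an epithelial cell has to express at least 1 gene of each type, and which pair it uses differs by tissue and layer. Basal cells of stratified epithelia use Krt5 with Krt14 or Krt15, the corneal epithelium adds Krt12, the conjunctiva and other wet mucosae use Krt4 with Krt13 together with Krt19 and Krt7, and simple epithelia use Krt8 with Krt18 or Krt19. Krt6a, Krt6b, Krt16 and Krt17 are known from hair follicles and from epidermis that is healing or stressed.

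The type I genes lie in 1 cluster on chromosome 11 (27 genes) and the type II genes in 1 cluster on chromosome 15 (25 genes), where Krt18 is the 1 type I gene beside them. Krt12 was the most abundant keratin of the uninjured epithelium and Krt5 its most abundant type II gene, and their upstream sequences are shown because these 2 genes formed the pair that led most uninjured cells. Both run 5′ to 3′ on the minus strand over the 250 bases before the transcription start, as RefSeq gives them on GRCm38.p6, at chr11:99422260-99422509 for Krt12 and chr15:101712906-101713155 for Krt5. Capitals mark matches to 4 motifs searched on both strands, TATAAA (the TATA box), CCACCC (a box known to bind Klf factors), GGGCGG (the GC box) and TGANTCA (the AP-1 site).
Krt12: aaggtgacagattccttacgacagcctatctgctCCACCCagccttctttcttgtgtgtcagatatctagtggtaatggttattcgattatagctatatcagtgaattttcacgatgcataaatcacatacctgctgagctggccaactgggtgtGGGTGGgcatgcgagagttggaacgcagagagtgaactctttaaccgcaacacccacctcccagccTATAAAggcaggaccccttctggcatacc
Krt5: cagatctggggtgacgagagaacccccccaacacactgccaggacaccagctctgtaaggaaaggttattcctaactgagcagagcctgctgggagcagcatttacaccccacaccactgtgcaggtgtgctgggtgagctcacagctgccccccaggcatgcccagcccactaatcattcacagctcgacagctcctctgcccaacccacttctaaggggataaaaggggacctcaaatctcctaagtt
The Krt12 window held TATAAA 29 bases before the start and CCACCC 216 and 95 bases before it, the latter on the other strand and so printed as GGGTGG. No match overlapped another. The Krt5 window held no match to these letters. Of 32851 promoter windows of this length, 12.4% held TATAAA, 28.1% CCACCC, 32.7% GGGCGG and 6.75% TGANTCA. RefSeq windows were at hand for 36 of the 53 keratin genes, 37 windows in all, and 17 of those held TATAAA, 13 held CCACCC, 2 held GGGCGG and 2 held TGANTCA. These matches describe the letters only.

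The uninjured library gave 6775 cells and the injured one 8346, and the median cell held 10162 and 10599 UMIs (unique molecular identifiers, the tags by which captured transcripts were counted). Only 13 analysed cell barcodes occurred in both libraries. Cells were clustered with every keratin gene left out and named from other marker genes. The epithelial-like class held 6141 uninjured and 5776 injured cells, and all 12 of its markers were detected in each library. The other classes were stromal-like (458 and 798 cells), mural-like (58 and 87), Schwann-like (55 and 97), vascular endothelial-like (42 and 212), macrophage- or monocyte-like (16 and 342), neutrophil-like (2 and 1018) and T- or NK-like (3 and 16). The mix of epithelial cells differed between the libraries. Of the uninjured epithelial-like cells 93.1% fell into 6 clusters led by corneal markers, 5.11% into 4 led by limbal markers and 1.81% into 3 led by conjunctival markers, against 0.26%, 80.8% and 19.0% of the injured cells. Each cluster took the name of the highest of these 3 marker scores, and a name does not by itself identify its cells. The limbal markers were Gpha2, Ifitm3, Cd63, Atf3, Lgals7 and Trp63. The summed corneal markers stood at 25876 CPM (counts, here UMIs, scaled to a class total of 1e6) in the uninjured and 1033 CPM in the injured epithelium, and the conjunctival markers at 1952 and 3199 CPM. The summed limbal markers stood at 1755 and 5804 CPM, while Trp63 alone stood at 89.6 and 66.2 CPM. A change of level within a cell and a change in the mix of cells therefore cannot be told apart at the level of the whole class, and a cluster made mostly of 1 library may reflect that library and not a cell type.

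Levels below are in CPM, which is not divided by transcript length, so that a comparison between genes is one of UMI shares. Ratios are injured over uninjured. Brackets give 95% intervals that cover counting error only and hold no variation between mice. A keratin was counted as higher or lower when its ratio was at least 2-fold with an interval that excluded 1, and when it had at least 20 UMIs.

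Of the 53 keratins, 29 reached 20 UMIs in the epithelial-like cells. In the injured epithelium 15 of them were at least 2-fold higher, 8 of type I and 7 of type II, 3 were at least 2-fold lower (Krt12, Krt78 and Krt33a), and 11 were neither. The shares are 51.7% higher and 10.3% lower, where 13.9% and 11.5% of all 14713 genes counted in the same way were higher and lower. The median log2 ratio was 1.13 over the 29 keratins and 0.02 over all genes. Without the clusters led by conjunctival markers (clusters 4, 8 and 15) 12 keratins were higher and 10 lower, so the count of lower members moved with these clusters. Leaving them out took away 1096 of 5776 injured but only 111 of 6141 uninjured epithelial-like cells. Uninjured clusters 6 and 13, rich in Krt13, Krt6a and Krt6b as given below, stayed in. In the epithelial-like cells 12 keratins reached 100 CPM in at least 1 library and are described one by one. Of the others 19 had at least 20 UMIs over all cells, 18 had fewer, and 4 (Krt26, Krt40, Krt73 and Krt81) had no UMI.

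**Figure D1:**
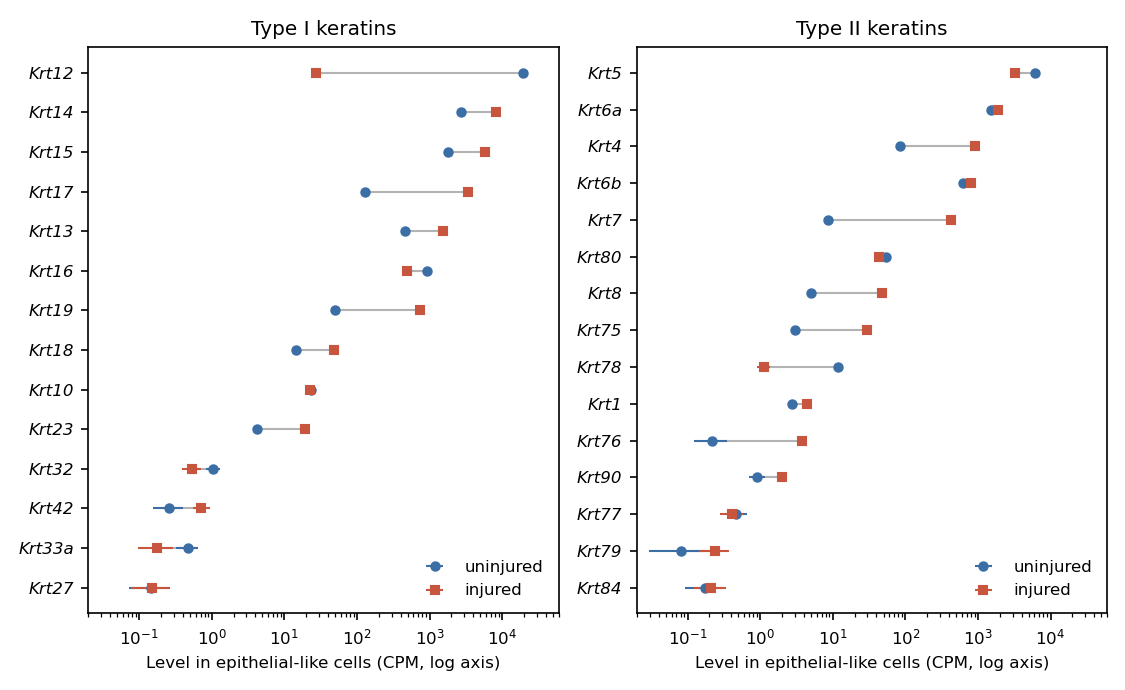
Level of each keratin with at least 20 UMIs in epithelial-like cells, in CPM on a log axis, uninjured (blue circles) and injured (red squares), with 95% Poisson intervals from counting error; type I genes on the left and type II genes on the right, ordered by their higher level. Krt12 moved from 19665 to 27.0 CPM, while Krt17, Krt19, Krt4 and Krt7 stood to the right in the injured library.

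Krt12, the type I keratin that marks the corneal epithelium, measured 19665 CPM without injury (19633 to 19696) and 27.0 CPM after it (25.8 to 28.1). That is 730-fold lower (699 to 761), a log2 ratio of -9.51, which was -10.24 without clusters 4, 8 and 15. Every uninjured epithelial-like cell held a Krt12 UMI, with a median of 162 a cell, whereas 578 of 5776 injured cells (10.0%) held one. These shares have to be read beside those of other cells, since 99.2% of the uninjured non-epithelial cells also held a Krt12 UMI, with a median of 5, against 0.623% of the injured non-epithelial cells. The part of free RNA in this was not tested. After every cell was thinned to 2000 UMIs, 99.3% of uninjured and 2.85% of injured epithelial-like cells held one. Of the injured epithelial-like cells 34 held at least 10 Krt12 UMIs and the highest held 124. Of those 34, 18 lay in cluster 15, led by conjunctival markers, and 4 in cluster 4, also led by conjunctival markers.

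The basal keratin Krt14, the usual partner of Krt5, measured 2747 CPM without injury (2735 to 2759) and 8304 CPM after it (8284 to 8324), a ratio of 3.02. Krt15, a keratin of limbal and conjunctival basal cells, stood at 1796 CPM (1786 to 1806) and 5828 CPM (5811 to 5845), a ratio of 3.24. The 2 differed in how widely they were spread. At 2000 UMIs a cell, Krt14 was seen in 86.3% of uninjured and 99.6% of injured cells, and Krt15 in 33.9% and 94.1%. Without clusters 4, 8 and 15 the log2 ratio of Krt15 was 0.82 in place of 1.70, under the 2-fold limit, and that of Krt14 stayed past it.

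Krt17, known from healing epidermis, measured 129 CPM without injury (126 to 131) and 3415 CPM after it (3402 to 3428), 26.5-fold higher (26.0 to 27.0). It was seen in 10.9% of uninjured and 87.7% of injured cells at 2000 UMIs a cell, and 550 injured cells held at least 100 of its UMIs against 12 uninjured cells. Without thinning a Krt17 UMI was found in 98.2% of injured epithelial-like and 43.7% of injured non-epithelial cells. Krt16, which is often named together with Krt17 and Krt6, went the other way, with 922 CPM (915 to 929) before and 495 CPM (490 to 499) after injury. This ratio of 0.536 did not reach the 2-fold limit; with every cell thinned to 2000 UMIs the log2 ratio was -1.24 in place of -0.90, past the limit, and without clusters 4, 8 and 15 it was -2.21. Krt16 was seen in 49.6% and 30.4% of thinned cells. The members known from stressed epidermis thus differed in direction in the whole class, where Krt17 was higher, Krt16 lower, and Krt6a and Krt6b within 1.31-fold of their uninjured level. Without clusters 4, 8 and 15, Krt6a and Krt6b were lower together with Krt16, while Krt17 stayed higher with a log2 ratio of 4.58.

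Krt13, the type I partner of Krt4 in wet mucosae, measured 464 CPM without injury (460 to 469) and 1518 CPM after it (1509 to 1526), a ratio of 3.27. Without clusters 4, 8 and 15 the direction turned, with a log2 ratio of -1.81 in place of 1.71. The uninjured cells kept in this comparison include cluster 6, with Krt13 at 811 CPM. Krt19, a keratin of conjunctiva and simple epithelia, stood at 50.4 CPM (48.8 to 52.1) and 734 CPM (728 to 740), 14.5-fold higher (14.1 to 15.0). Without clusters 4, 8 and 15 Krt19 was still higher, with a log2 ratio of 2.18. Krt19 was seen in 2.48% of uninjured and 20.6% of injured thinned cells.

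Among the type II genes, Krt5, the general basal keratin, measured 6027 CPM without injury (6010 to 6045) and 3278 CPM after it (3266 to 3291), a ratio of 0.544. It was seen in nearly all cells of both, 99.6% and 98.3% at 2000 UMIs a cell, and its log2 ratio of -0.88 became -1.11 without clusters 4, 8 and 15. The level of Krt5 was thus lower while those of its partners Krt14 and Krt15 were higher. Krt6a stood at 1529.9 CPM (1521 to 1539) and 1914 CPM (1904 to 1923), and Krt6b at 617 CPM (611 to 623) and 810 CPM (804 to 816), ratios of 1.25 and 1.31. Without clusters 4, 8 and 15 both were lower in the injured cells, with log2 ratios of -1.21 for Krt6a and -3.13 for Krt6b. The split between Krt6a and Krt6b is uncertain, because 41.5% of the 60-base words of Krt6b transcripts also occur in Krt6a transcripts and 37.3% of those of Krt6a in Krt6b.

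Krt4, the type II partner of Krt13, measured 84.4 CPM without injury (82.3 to 86.5) and 922 CPM after it (915 to 928), 10.9-fold higher (10.6 to 11.2). Krt7, known from conjunctival and glandular epithelium, stood at 8.58 CPM (7.93 to 9.27) and 419 CPM (414 to 423), 48.8-fold higher (45.1 to 52.8), the highest ratio among the 12 keratins. It was seen in 1.21% of uninjured and 33.0% of injured cells at 2000 UMIs a cell, and in 3.06% and 67.3% of unthinned cells. Among unthinned non-epithelial cells 0.158% and 8.09% held a Krt7 UMI, at lower median depths of 4667.5 and 3347.5 UMIs. Leaving out clusters 4, 8 and 15 gave log2 ratios of 1.44 for Krt4 and 6.18 for Krt7, so Krt7 was also higher outside those clusters.

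Of the 19 less abundant members, 17 reached 20 UMIs within the epithelial-like cells. The simple-epithelial pair was higher in the injured library, Krt8 at 5.00 against 48.1 CPM (9.63-fold) and Krt18 at 14.3 against 49.0 CPM (3.42-fold). In limbal-marker cluster 3 the ratios were 0.478 (0.180 to 1.08) for Krt8 and 0.414 for Krt18, while in cluster 15 both were higher. Both differences over the whole class were smaller under other settings. The log2 ratio of Krt8 was 2.35 with thinned cells, 2.44 with cells weighted alike and 2.24 without clusters 4, 8 and 15 in place of 3.27, and that of Krt18 was 1.11 with thinned cells in place of 1.78. The largest ratio among these genes was that of Krt76, a keratin of oral mucosa, at 0.214 against 3.81 CPM, 17.8-fold higher (10.8 to 31.5) from 16 and 306 UMIs. Its log2 ratio of 4.15 was 2.90 with thinned cells and 3.18 without clusters 4, 8 and 15. The opposite end was Krt78, at 11.8 against 1.12 CPM, 10.5-fold lower (8.47 to 13.2), and its log2 ratio of -3.40 was -6.39 without clusters 4, 8 and 15. The epidermal pair Krt1 and Krt10 lay within 2-fold of its uninjured level, with Krt1 at 2.77 against 4.36 CPM and Krt10 at 23.0 against 22.6 CPM. Krt80 stood at 53.7 against 42.9 CPM, but without clusters 4, 8 and 15 it was past the limit, with a log2 ratio of -2.52 in place of -0.32. The hair-type gene Krt33a, counted as lower, rests on 35 and 14 UMIs, and it was not among the lower keratins with thinned cells or with each cell weighted alike.

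Summed over all members, keratins took 3.42% of the UMIs of uninjured and 2.79% of those of injured epithelial-like cells, a log2 ratio of -0.29. The makeup changed more than the sum. In the uninjured epithelium Krt12 held 76.2% of type I UMIs, Krt14 10.6% and Krt15 6.96%, whereas in the injured epithelium Krt14 held 40.7%, Krt15 28.6% and Krt17 16.7%. Among type II UMIs Krt5 held 72.2%, Krt6a 18.3% and Krt6b 7.39% in the uninjured library, and Krt5 43.9%, Krt6a 25.6% and Krt4 12.3% in the injured. Type I UMIs exceeded type II UMIs 3.09-fold (3.08 to 3.10) in the uninjured and 2.73-fold (2.72 to 2.74) in the injured library. Without clusters 4, 8 and 15 this order turned, at 3.15 and 3.49.

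**Figure D2:**
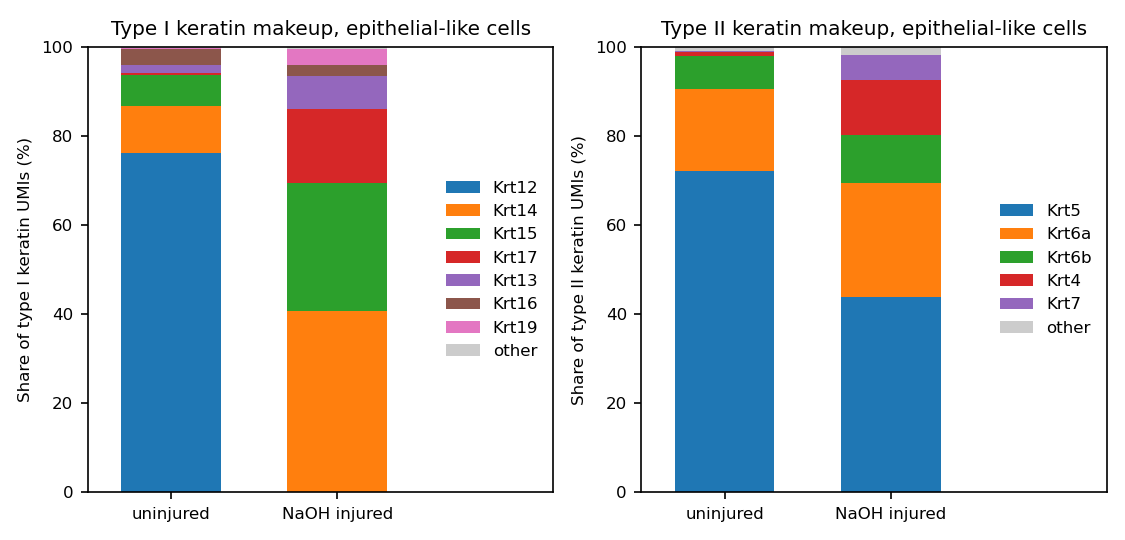
Share of type I (left) and type II (right) keratin UMIs in percent held by each keratin of at least 100 CPM in epithelial-like cells of the uninjured and NaOH injured library, with all other members as grey. Krt12 held 76.2% of the uninjured type I bar, and Krt14, Krt15 and Krt17 held most of the injured one.

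Each cell's leading pair was read after thinning to 2000 UMIs, as its type II and its type I keratin with most UMIs, in 5292 uninjured and 5681 injured epithelial-like cells. Krt5 with Krt12 led in 4608 uninjured cells, 87.1% (86.1 to 88.0), Krt5 with Krt14 in 5.71% and Krt5 with Krt15 in 2.40%. In the injured library Krt5 with Krt14 led in 3818 cells, 67.2% (66.0 to 68.4), Krt5 with Krt15 in 8.52%, Krt6a with Krt15 in 3.45%, Krt6a with Krt14 in 2.94%, Krt5 with Krt17 in 2.90% and Krt4 with Krt15 in 1.95%. The leads of the 2 libraries thus differed mainly on the type I side. Krt5 led the type II side in 95.8% of uninjured and 81.0% of injured cells. The most frequent type I lead was Krt12 in the uninjured (90.5% of cells) and Krt14 in the injured library (75.8%). As the mix of cells differed, these shares do not show a switch within cells. In limbal-marker cluster 3, Krt5 with Krt14 led 65.9% of uninjured and 72.9% of injured thinned cells. In clusters 8 and 15, also of both libraries, the most frequent pair differed between the libraries. Krt17, although the third type I keratin by UMIs in the injured library, led in only 4.12% of those cells.

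Of the 12 classical pairs, both members of Krt4 with Krt13 were seen in 2.66% of uninjured and 14.5% of injured thinned cells. The product of their single shares would be 0.729% and 7.38%. In the injured library 50.2% of Krt4-positive cells held Krt13 and 56.7% of Krt13-positive cells held Krt4. Krt7 and Krt19 were seen together in 0.246% and 12.8% of cells, where the product of their single shares would be 0.0299% and 6.79%. Krt8 and Krt18 occurred together in 0.0378% (2 cells) and 0.933% of cells, where the product would be 0.0304% and 0.182%. Of injured Krt8-positive cells, 27.0% held Krt18 and 55.1% held Krt19. Krt6a met Krt17 in 6.03% of uninjured and 52.3% of injured cells, close to the product of the single shares in each (6.03% and 51.2%). Krt6a met Krt16 in 31.5% and 22.3%, where the product would be 27.3% and 17.7%. Krt1 with Krt10 was seen in 0.0378% and 0.0704% of cells. At this depth a keratin of low level is missed in most cells, and free RNA can add a UMI to a cell that does not express the gene.

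The clusters showed where each keratin stood. Among the uninjured corneal-marker clusters Krt12 ranged from 14933 CPM in the cycling cluster 0 to 31900.2 CPM in cluster 13, 1 of 2 clusters that also scored high for superficial markers. Those 2 clusters, 6 and 13, also held the highest uninjured corneal levels of Krt5, Krt6a and Krt15, with Krt6a at 3898 CPM in cluster 6 and 6616 CPM in cluster 13 against 414 CPM in cluster 0, and Krt15 at 3447 and 6462 CPM against 294 CPM. Krt14 ran the other way, from 3319 CPM in cluster 0 to 514 CPM in cluster 13. Krt13 at 4385 CPM and Krt6b at 5093 CPM in cluster 13 were far above cluster 1, the largest corneal-marker cluster, where they stood at 20.9 and 42.0 CPM. In the injured library the largest cluster, limbal-marker cluster 17 with 2664 cells, held Krt14 at 7199.8 CPM, Krt5 at 2466 CPM, Krt15 at 2710.4 CPM and Krt17 at 1325 CPM. Cluster 18, of 1134 injured cells and no uninjured cell, with Clu, Inhba, Actn1 and Acta2 among its leading genes, held Krt17 at 4998 CPM, Krt7 at 531 CPM and Krt18 at 88.3 CPM, its Krt18 level being the highest of any cluster of at least 20 cells. Among clusters with at least 20 injured cells, cluster 15 held the highest injured levels of Krt15 (15594 CPM), Krt17 (6317 CPM), Krt19 (2972 CPM), Krt6a (6063 CPM) and Krt8 (148 CPM). Cluster 8, with Lce3a, Psca and Prss22 among its leading genes and high scores for conjunctival and superficial markers, held, by the same limit, the highest injured Krt13 (12178 CPM), Krt7 (4274 CPM) and Krt23 (586 CPM).

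**Figure D3:**
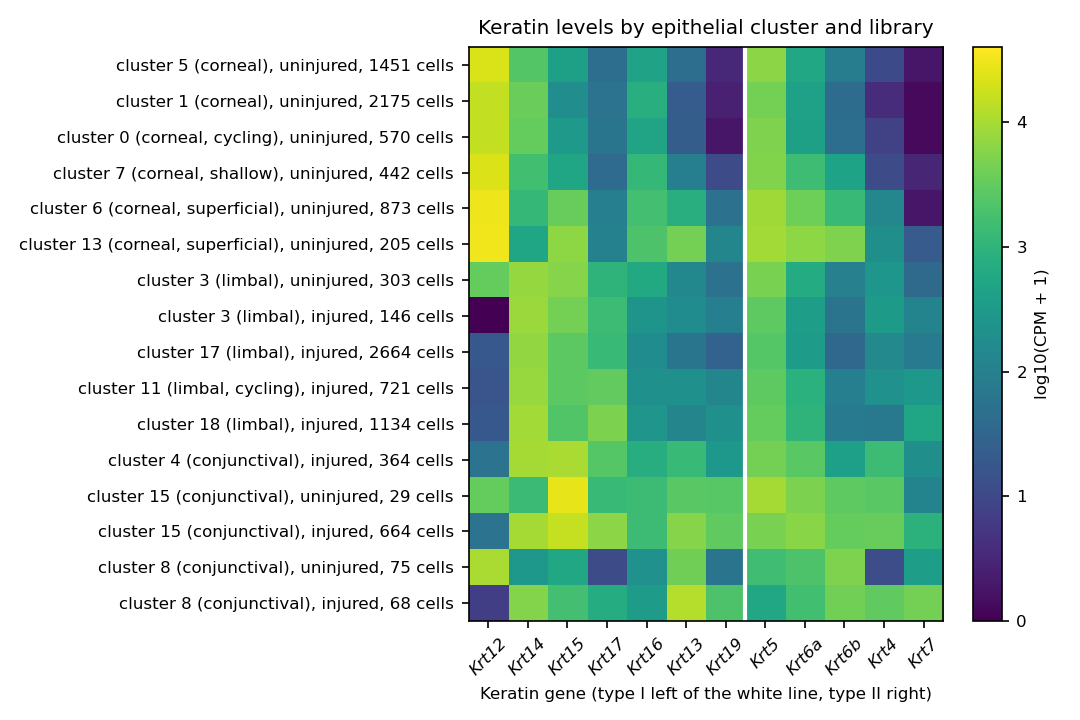
Level of the 12 keratins of at least 100 CPM as log10(CPM + 1) (colour) in each epithelial cluster and library with at least 20 cells; rows give the leading marker set, the library and the number of cells. The 6 corneal-marker rows at the top, all uninjured, are bright for Krt12 and hold Krt7 at 19.6 CPM at most. The conjunctival-marker rows at the bottom are bright for Krt13 and Krt6a, as is the corneal-marker row of cluster 13. Krt6b is less bright in injured cluster 4, at 401 CPM.

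Within these clusters the summed keratin share also differed. It was 6.72% of UMIs in uninjured cluster 13 and 6.06% in injured cluster 15, against 2.48% in uninjured cluster 1 and 1.47% in injured cluster 17. Type I exceeded type II UMIs most in cluster 1 (4.09-fold) and least in cluster 8 (1.53-fold uninjured, 1.63-fold injured), among clusters of at least 20 cells in a library. Pairs followed the clusters. Krt5 with Krt12 led 96.7% of thinned cells in cluster 5 and 63.2% in cluster 13, Krt5 with Krt14 led 82.8% in injured cluster 17, and in injured cluster 8 the leading pairs were Krt7 with Krt13 (28.4%), Krt6b with Krt13 (26.9%) and Krt4 with Krt13 (14.9%).

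Only 3 clusters held at least 20 cells of each library, so that keratins could be set side by side among cells grouped by other genes. In cluster 3, led by limbal markers, with 303 uninjured and 146 injured cells, 17 keratins were counted and 1 was higher (Krt7) and 4 lower (Krt12, Krt16, Krt18 and Krt80), against 2.15% of genes higher and 6.92% lower among 9382 genes in that cluster. Krt14 stood there at 7413 against 7954 CPM (1.07-fold), Krt15 at 5877 against 4292 CPM, Krt5 at 4639.8 against 2925 CPM and Krt17 at 983 against 1397 CPM (1.42-fold). Krt14, Krt15 and Krt17, all past the limit in the whole class, were thus within it in cluster 3. Krt12 stood at 3243 CPM in its uninjured cells, above the 1041 CPM of the stromal-like cells of that library, and at 0 UMIs in its injured cells. With 3 counts over the cluster taken as the floor, Krt12 was 1491-fold lower, and the interval from counting error reached down to 1212-fold. Krt7 stood at 37.4 against 119.6 CPM, 3.20-fold higher (2.53 to 4.05).

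In cluster 8, led by conjunctival markers, with 75 uninjured and 68 injured cells, 8 of 18 keratins were higher and 3 lower (Krt12, Krt5 and Krt78), against 11.4% and 12% of 4119 genes. Krt4 stood at 11.4 against 2941 CPM, from 9 and 2448 UMIs, 259-fold higher (136 to 567). Krt17 stood at 10.1 against 698 CPM, Krt19 at 58.0 against 2057 CPM, Krt14 at 281 against 5651 CPM and Krt7 at 368 against 4274 CPM. The uninjured cells of cluster 8 still held Krt12 at 10268 CPM, and its corneal markers scored above those of the other conjunctival-marker clusters. Krt6b with Krt12 led 53.4% of its thinned uninjured cells, whereas the leading pairs of its injured cells held Krt13. Its ratios thus compare cells led by different type I keratins. These 75 cells were most of the 111 uninjured cells in clusters led by conjunctival markers. In cluster 15, with 29 uninjured and 664 injured cells, 7 of 23 keratins were higher and 2 lower (Krt12 and Krt5), against 4.95% and 5.96% of 10931 genes. Krt15 stood there at 26409 against 15594 CPM, Krt14 at 1352 against 9490.0 CPM (7.02-fold), Krt17 at 1275 against 6317 CPM (4.96-fold) and Krt5 at 9554 against 4759 CPM, while Krt4, Krt19, Krt16, Krt6a and Krt6b lay within 1.25-fold of their uninjured level. Among the 12 keratins described one by one, Krt12 and Krt5 were lower and Krt13, Krt14, Krt17, Krt19, Krt4 and Krt7 higher in the injured cells of all 3 clusters, by sizes that differed between clusters. Krt12 and Krt7 were past the 2-fold limit in each of the 3 clusters and the other 6 were not, and Krt4 for example had ratios of 1.24 in cluster 3, 259 in cluster 8 and 1.25 in cluster 15. Krt15, Krt16, Krt6a and Krt6b had no shared direction. Krt15 was lower in clusters 3 and 15, with ratios of 0.730 and 0.590, and higher in cluster 8, at 554 against 1663 CPM.

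**Figure D4:**
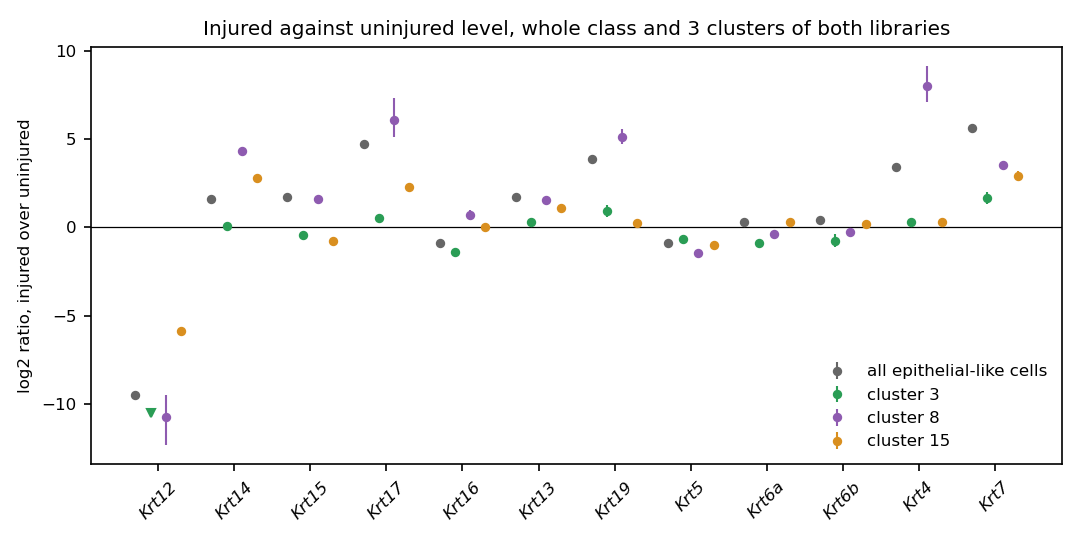
Log2 ratio of injured over uninjured level of the 12 keratins in all epithelial-like cells (grey) and in the 3 clusters with at least 20 cells of each library, with 95% intervals from counting error. The triangle marks Krt12 in cluster 3, where no UMI was found in injured cells and the value rests on a floor of 3 counts, without an interval. Krt12 and Krt5 lie below 0 and Krt13, Krt14, Krt17, Krt19, Krt4 and Krt7 above 0 in every group, and Krt15 changes sign between clusters.

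Epithelial-like cells were also split by the summed UMIs of 8 hemidesmosome and basement membrane genes after thinning, as a basal range. The keratin share of UMIs was lower in more basal cells of both libraries, from 4.56% in cells with 0 to 1 basal UMIs to 2.66% in those with 5 or more in the uninjured library, and from 4.04% to 1.83% in the injured. Krt7 stood at 21.4 against 636 CPM in the least basal cells and at 1.27 against 320 CPM in the most basal (25 and 5557 UMIs). Krt17 stood at 200.3 against 4205 CPM in the least and 69.2 against 3043 CPM in the most basal, and Krt15 at 3805 against 9626 CPM and 347 against 2520 CPM. The injured levels of these 3 genes were above the uninjured ones in all 3 ranges. Krt16 was lower in all 3, with ratios of 0.641, 0.452 and 0.322 from the least to the most basal. Among cycling cells (566 uninjured and 558 injured) Krt12 stood at 14054 against 13.8 CPM, Krt17 at 157 against 3160 CPM and Krt7 at 2.69 against 329 CPM, so these differences were also seen among cycling cells. Here too the mix of cells differed. Cycling cluster 0, led by corneal markers, held 570 uninjured cells, and cycling cluster 11, led by limbal markers, held 5 uninjured and 721 injured cells.

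Neighbours in the genome did not share a direction throughout. In the type I cluster, Krt13, Krt15, Krt19, Krt14, Krt16 and Krt17 follow each other on the minus strand of chromosome 11, from 100117327 to 100261029 (GRCm38, GENCODE M21), with Krt9 (6 epithelial UMIs) between Krt19 and Krt14. Their log2 ratios in that order were 1.71, 1.70, 3.86, 1.60, -0.90 and 4.73, so that Krt16 stood between 2 genes of the other sign. Krt16 shares 9.30% of its 60-base words with Krt14. Krt12, at 99415666 to 99422259 on the same chromosome, lies between Krt10 with a log2 ratio of -0.02 and Krt20 with 20 UMIs in all. On chromosome 15, Krt8 (101996698 to 102004482) and Krt18 (102028180 to 102032027) follow each other in keratin order with log2 ratios of 3.27 and 1.78, and Krt6b, Krt6a and Krt5 with 0.39, 0.32 and -0.88.

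Cells outside the epithelium held 0.653% of all keratin UMIs. In stromal-like cells the abundant keratins stood at a nearly fixed share of their epithelial level, with a median of 5.91% (4.51 to 7.68) in the uninjured and 3.74% (2.67 to 5.70) in the injured library. The share was higher in shallow classes, and it varied more between keratins there. Its median was 23.5% (8.70 to 49.3) in uninjured and 9.52% (4.33 to 21.2) in injured Schwann-like cells and 16.5% (9.90 to 24.5) in injured neutrophil-like cells, whose median depths were 1209, 2584 and 853 UMIs. Free RNA would give a like low share for all genes, but it was not measured here. Its part in these UMIs was not tested, either in stromal-like cells or in the wider ranges of the shallow classes. No keratin at the share above is therefore called expressed or not expressed in stromal-like cells. The counts of higher and lower keratins in stromal-like cells, 7 and 4 of 16 against 9.8% and 9.35% of 11954 genes, had the epithelial direction for Krt14, Krt15, Krt17, Krt18, Krt19, Krt4, Krt7, Krt12, Krt16 and Krt5, and the remaining lower gene was Krt222. Of 10 keratins counted in mural-like cells 1 was higher and 3 lower (8.86% and 8.19% of 4662 genes). In Schwann-like cells 3 of 11 were higher and 3 lower (10% and 5.48% of 3560 genes), and in vascular endothelial-like cells 3 of 12 were higher and 3 lower (6.04% and 6.64% of 7964 genes). The lower ones were Krt12, Krt16 and Krt5 in each of these 3 classes, and Krt17 was higher in each.

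A few members stood apart from that share. Krt10 reached 27.9 CPM (21.8 to 35.2) in uninjured and 21.6 CPM (18.8 to 24.7) in injured stromal-like cells, about its epithelial level of 23.0 and 22.6 CPM, with 290 UMIs in 245 of 1256 cells. Krt222 had 24 of its 27 UMIs outside the epithelium, 23 of them in 23 stromal-like cells, at 4.26 CPM (2.13 to 7.63) uninjured and 1.19 CPM (0.615 to 2.08) injured. All 11 UMIs of Krt83, a hair keratin gene, lay outside the epithelium, 9 of them in 7 of the 19 T- or NK-like cells. Krt79 had 4 of its 31 UMIs in mural-like cells. Krt80 stood at 18.4 CPM (12.8 to 25.5) in injured macrophage- or monocyte-like cells, 42.8% of its epithelial level, from 35 UMIs in 29 cells. Krt222, Krt83, Krt79 and Krt80 were singled out after their values were seen.

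**Figure D5:**
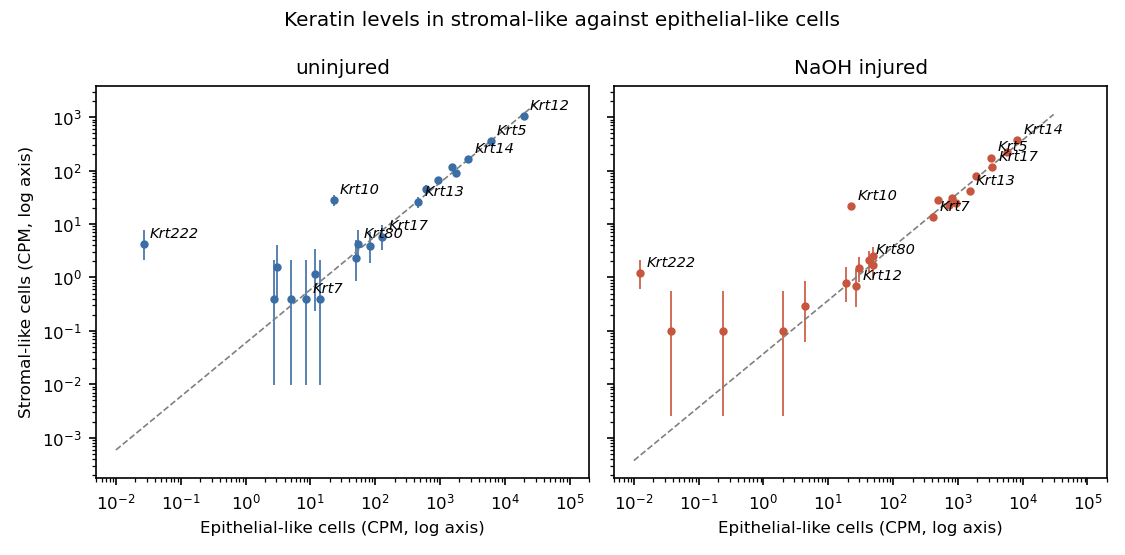
Level of each keratin in stromal-like (vertical) against epithelial-like cells (horizontal), both in CPM on log axes, in the uninjured (left) and NaOH injured (right) library, with 95% Poisson intervals; the dashed line is the median share of the abundant keratins, and keratins with no UMI in 1 of these classes are not drawn. Most points follow the line, and Krt10 and Krt222 lie above it in both libraries.

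A list made mostly of genes that tie keratin filaments to junctions or form other intermediate filaments differed less. Krtdap and Krtcap2 are on this list but are of neither kind. Of 26 listed, 21 had enough UMIs, 5 were higher (Pkp2, Krtdap, Vim, Synm and Nefm) and 0 lower, against the 13.9% and 11.5% of all genes given above, with a median log2 ratio of 0.03 against 0.02 over all genes. Of those of at least 50 CPM, desmoplakin (Dsp, also 1 of the markers that named the epithelial-like class) stood at 971 against 554 CPM, periplakin (Ppl) at 309.6 against 176 CPM and envoplakin (Evpl) at 219 against 123 CPM, ratios of 0.571, 0.569 and 0.561. Vimentin (Vim), the mesenchymal filament gene, stood at 4.06 against 45.5 CPM, beside summed stromal markers of 97.5 against 330 CPM in the same cells, and their part in the Vim difference was not tested. Vim lies under 50 CPM and was singled out after its values were seen. Of 16 listed regulators of keratin genes 2 were higher (Barx2 and Gata3) and 3 lower (Pax6, Tfap2c and Esr1), beside 13.9% and 11.5% of all genes, with a median log2 ratio of -0.26. Pax6, the eye field factor that is also among the corneal markers used to name clusters, stood at 194 against 80.6 CPM, and Barx2 at 5.44 against 68.4 CPM, 12.6-fold higher (11.4 to 13.9). Klf4 and Klf5 stood at 788 against 734 CPM and 436 against 448 CPM.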

How the data were processed

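Droplet single-cell RNA sequencing measured the cornea and limbus in 1 uninjured and 1 NaOH injured wild-type library. The authors deposited raw UMI counts per gene and cell. Per the file headers these came from Cell Ranger 7.0.1, and the submitters' processing notes name GRCm38. The chemistry kit and gene annotation release were not given in the sources used here. A count is 1 UMI, so depth sets the precision: the analysed cells held 77816659 and 96375562 UMIs.

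A barcode passed with 300 or more genes, 500 or more UMIs and no more than 20% of UMIs from mitochondrial genes, which left 7150 of 7490 and 9003 of 9399. Scrublet in scanpy 1.11.5 scored doublets. Its own threshold marked 32 and 3 cells, under 0.5% of each library, so the highest scores were removed at 0.8% per 1000 barcodes (375 and 657 cells). Counts scaled to 10000 per cell gave 2000 variable genes without keratins, 30 principal components, 20 neighbours and Leiden clusters at resolution 1, with no batch correction. Clusters were named from markers other than keratins, at least 3 of them detected. Cluster 7 (442 and 5 cells) is shallow, with a median of 1292 UMIs, and kept its name because 2 of the epithelial markers are among its 10 leading genes against other classes.

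UMIs were summed per class or cluster and library and divided by the total to give CPM. Ratios carry exact conditional binomial intervals and levels exact Poisson intervals at 95%; shares of cells carry exact binomial intervals. Counts under 3 were set to 3 for ratios. Members of at least 100 CPM in the epithelial-like cells of 1 library are described one by one. Those below it with at least 20 UMIs are given as a group with examples, more than the 6 that were planned. The others are given mostly by count, and Krt83 among them was singled out. Listed linker and regulator genes have values where they reach 50 CPM and have the largest ratios. Values for Klf4, Klf5 and Vim are given outside this rule. The calling was tested on simulated data over 14713 epithelial genes, where 44% were called at 2-fold and 100% at 4, 8 and 16-fold, with 0.296% of unaltered genes called. The simulated counts held counting error only, with no variation between mice, cells or mixes of cells. They give no rate of false calls for these libraries, and the 2-fold setting lies on the limit itself. The members and lists were chosen with earlier results of these data known. Alternatives were another cell filter, doublet rule, resolution, number of components, keratins kept in clustering, thinning to 2000 UMIs, cells weighted alike, median-of-ratios scaling and no UMI minimum. Gene coordinates are those of GENCODE M21. Python 3.11.15, numpy 2.4.6, scipy 1.17.1, pandas 2.3.3, python-igraph 0.11.9 and scikit-learn 1.9.0 were used.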

Additional observations from a re-analysis of the deposited data

Results flagged for a closer look

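The injured over uninjured ratio of Krt18 in cluster 3, led by limbal markers, was 0.414 (38.5 against 15.95 CPM, from 138 and 22 UMIs), while over all epithelial-like cells it was 3.42. It stands out because Krt18 was lower in the injured cells of this cluster and higher in the class as a whole. Its partner Krt8 also had a ratio under 1 there, 0.478 (0.180 to 1.08), from 38 and 7 UMIs, but with an interval that held 1. The difference between the ratios was not tested, since each group has 1 library.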

How the results depend on the processing

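The alternatives that left out clusters were chosen after seeing the data. Leaving out clusters 4, 8 and 15 took away 19.0% of injured but 1.81% of uninjured epithelial-like cells. Of 18 keratins past the limit in the epithelial-like cells, all 18 were called the same way under the stricter cell filter, the doublet caller's own threshold, resolution 2, 15 components, keratins kept in the clustering, median-of-ratios scaling, no UMI minimum and without the shallow cluster 7; 14 were with thinned cells, of which only 22 keratins could be counted, 15 with each cell weighted alike, and 15 without clusters 4, 8 and 15, where Krt13 had the opposite call. The count of higher keratins ranged from 12 to 16. The count of lower ones was 3, but 5 with no UMI minimum and 10 without clusters 4, 8 and 15. The summed keratin log2 ratio of -0.29 was -0.30 with the caller's own doublet threshold, -0.46 with thinned cells, -0.45 with cells weighted alike, -0.29 with median-of-ratios scaling and -0.94 without clusters 4, 8 and 15. Type I over type II UMIs were 3.31 thinned, 3.32 weighted alike and 3.15 without those clusters in the uninjured library (3.09 as reported), and 2.74 with the caller's own threshold, 2.98 thinned, 2.93 weighted alike and 3.49 without those clusters in the injured (2.73 as reported). Krt13 turned to -1.81 without clusters 4, 8 and 15. The median-of-ratios factor differed from that of the totals by -0.004 on the log2 scale, which raised each log2 ratio by as much. The causes of these shifts were not tested, apart from the cells left out by construction. Adding shallow unnamed clusters was not run, because every cluster had a name. No paired analysis was possible because each group has 1 library. With 1 library a group, the spread between mice is unknown, and time after injury, batch and mix of cells cannot be told apart from the injury.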
